A study of Homo sapiens with 12 samples.

Results

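The genes described here encode the chaperones, folding enzymes and quality-control factors of the endoplasmic reticulum (ER) and the heat shock proteins of the cytosol and the mitochondria. The list names 36 genes by symbol, 20 of the ER and 16 of the cytosol and mitochondria, and each was read from the deposited array values through its brightest probe. A named probe was found for 35 of the 36, which are 19 ER genes and 16 cytosolic and mitochondrial genes, out of 18852 genes measured. HERPUD1, a membrane protein of ER-associated degradation, was the 1 gene without a named probe and is not analysed here.

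Proteins that enter the secretory pathway fold in the ER with the help of HSPA5 (BiP), its J-domain partners, lectin chaperones and disulfide isomerases. When unfolded proteins build up there, the sensors ERN1 (IRE1), EIF2AK3 (PERK) and ATF6 raise the transcription of these helpers and of the degradation machinery, which is the unfolded protein response. The heat shock genes of the cytosol answer to another regulator, HSF1, and supply HSP70, HSP90, J-domain and small heat shock proteins.

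The cells were HD-MyZ, an established human cell line from a Hodgkin lymphoma, so all groups share that 1 genotype. They were exposed for 24 h to 10 µM perifosine (an alkylphospholipid that inhibits the kinase AKT), to 5 µM sorafenib (an inhibitor of RAF and several receptor tyrosine kinases), to both drugs at these concentrations (the combination), or to no drug (control). Each of the 4 groups had 3 arrays (Illumina beadchips), called A, B and C. No label calls the 3 separate cultures, so the p-values reflect only how far these samples spread, which may be technical.

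Intensities of all probes ran from 170 to 71906 on a linear scale, and with 3 arrays a group their number limits the precision. Sorafenib B, combination A and control C stood apart from their group mates, with a mean correlation to them of 0.963, 0.985 and 0.985, against 0.994, 0.993 and 0.994 between the mates. All 12 arrays were kept, and the results that rest on these 3 are given without them too (9 arrays). The 3 were picked because they differed from their mates in these same data. Leaving them out lowers the spread within groups by construction and leaves fewer arrays in those groups. The adjusted p-values over 9 arrays are therefore likely too low, and calls over 9 arrays are given as description. Of 10 markers of Hodgkin cells, 6 had a mean log2 intensity of at least 9 (an intensity of 512, below which a probe is called dim here), while CD30 (TNFRSF8), CCL17, CCL22 and IRF4 did not. No T cell marker did (0 of 5), against 1 of 9 for B and plasma cells, 1 of 8 for monocytes and macrophages and 1 of 5 for epithelium. Of 8 markers of fibroblasts and stroma, 5 did, with COL3A1, LUM and PDGFRB dim, and their summed intensity was 29983 to 35720 with perifosine, 71018 to 87797 with sorafenib, 69447 to 84337 with the combination and 35313 to 42171 in control. This sum, to which COL1A2 gave the most (median intensity 37942), rose with sorafenib, while DNAJC3, DNAJB11 and DNAJB1 below fell. Its part in those results was not tested.

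Not all chaperone probes could show a change equally well. The mean intensity of the 19 ER genes ran from 344 (PDIA3) to 59671 (HSP90B1), and 3 of them, PDIA3, SEL1L and ERO1B, were dim, where the unsubtracted background compresses a change. The 16 cytosolic and mitochondrial genes ran from 1358 (HSF1) to 69245 (HSP90AA1). HSPA8, HSPD1 and HSP90AA1 were among the 100 brightest genes, next to the highest value on the arrays, where a rise can hardly be seen. HSP90B1, HSPE1 and HSP90AB1, at ranks 113, 122 and 132, read up to 68945, 70372 and 67634, so the same limit holds for them. The best example is HSP90AA1, whose brightest probe stayed between 66027 and 70515 on all 12 arrays. A less bright probe of HSP90AA1 read 53544, 52150 and 49215 with perifosine, 47875, 68169 and 48835 with sorafenib, 63284, 38662 and 52468 with the combination, and 60670, 62135 and 65581 in control. That probe spread far more between arrays than the brightest one, and no change in it passed the test (adjusted p = 0.56 for the combination against control, over 28098 probes). Another HSP90AA1 probe, with a mean intensity of 1549, lay far from the top. Against control it gave log2 changes of -0.38, -0.12 and 0.03 with perifosine, sorafenib and the combination (SE 0.19). None of these passed (adjusted p = 0.766, 0.876 and 0.983).

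**Figure D1:**
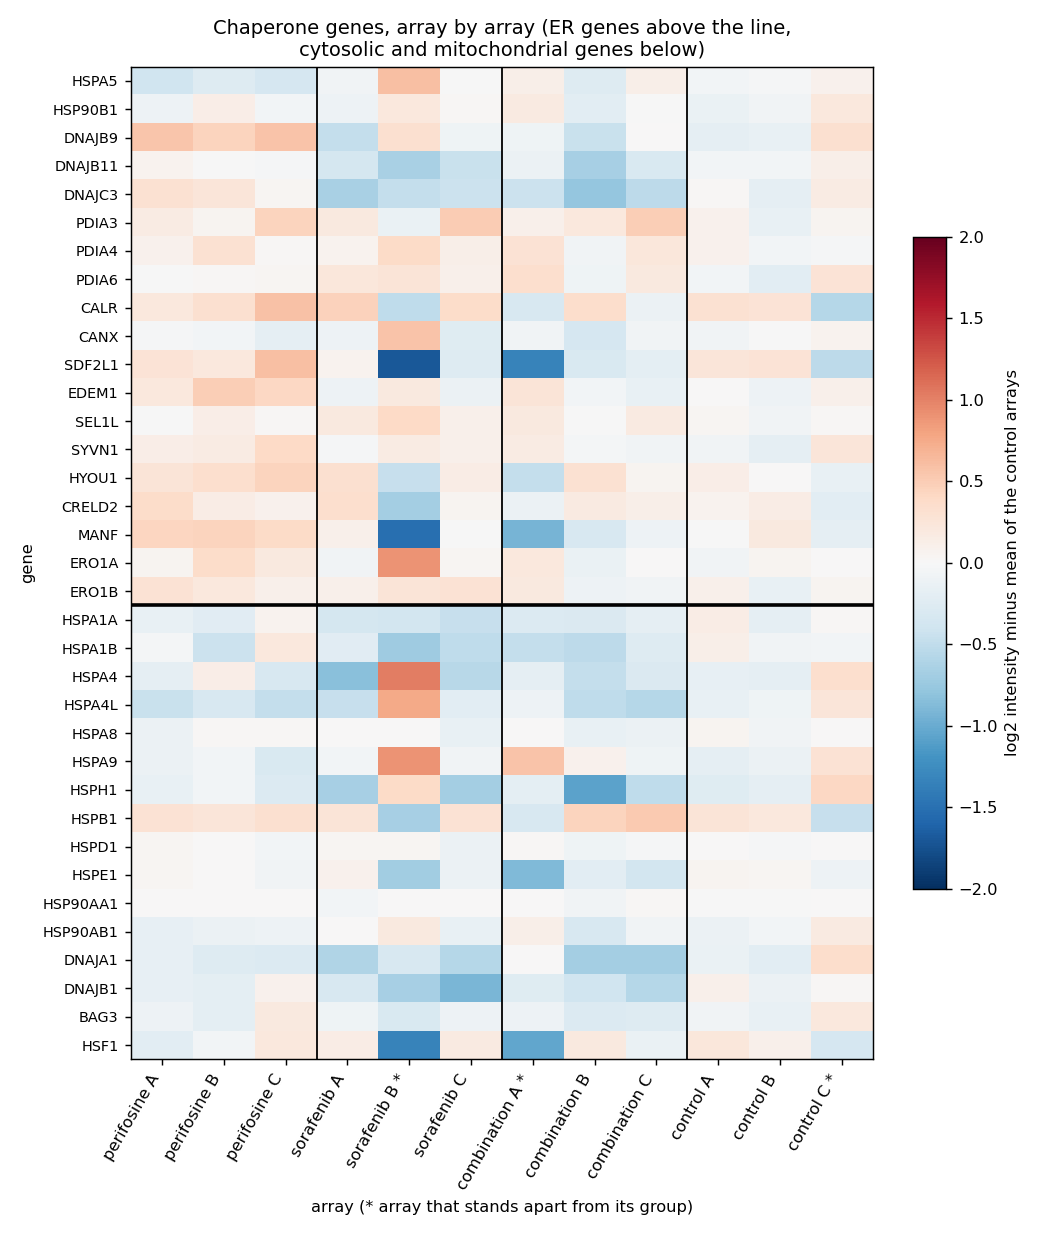
Each row is 1 of the 35 measured chaperone genes and each column 1 of the 12 arrays, in the order perifosine, sorafenib, combination, control. Colour gives log2 intensity minus the mean of the control arrays (red above, blue below). DNAJB11 and DNAJC3 are blue on the sorafenib and combination arrays, DNAJB9 and MANF are red on the perifosine arrays, and the deepest blue cells are SDF2L1 and MANF on sorafenib B and SDF2L1 on combination A, both arrays being among the 3 marked with a star.

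The unfolded protein response and the heat shock response are each known for a promoter element, so the elements found at these genes are shown first. Windows of 300 bases, from 250 before to 50 after a RefSeq start (GRCh38.p14, 1 start per gene), were found for 34 of the 36 genes, HERPUD1 among them, 19 of the ER and 15 of the cytosol and mitochondria. They were searched on both strands. The ER stress response element, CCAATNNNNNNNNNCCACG, to which ATF6 and NF-Y bind, was in 6 of 19 ER windows (31.6%), in 0 of 15 cytosolic and mitochondrial ones and in 22 of 27305 genes in all (0.0806%). Each match is printed 5′ to 3′ on the strand given, with its fixed ends in capitals and its place counted in bases along the gene from the start site.
HSPA5 (chr9:125241391-125241409, minus strand, bases -66 to -48): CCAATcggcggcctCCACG
HSP90B1 (chr12:103930216-103930234, plus strand, bases -194 to -176): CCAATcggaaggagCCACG
HSP90B1 (chr12:103930321-103930339, minus strand, bases -89 to -71): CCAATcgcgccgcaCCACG
PDIA6 (chr2:10812853-10812871, minus strand, bases -86 to -68): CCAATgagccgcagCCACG
CALR (chr19:12938384-12938402, minus strand, bases -225 to -207): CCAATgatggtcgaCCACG
CRELD2 (chr22:49918554-49918572, minus strand, bases -80 to -62): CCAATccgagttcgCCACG
ERO1B (chr1:236282183-236282201, plus strand, bases -243 to -225): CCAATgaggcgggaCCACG

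Of these 6 genes, none passed the test in any comparison made, over 12 or over 9 arrays. Among them, HSP90B1 was read near the top of the scale, where a rise can hardly be seen, and ERO1B was dim. A second element, TGACGTGG, was in 1 ER window, that of HYOU1, and in 0.762% of all. The shorter CCAAT, which is part of the first element, was in 89.5% of ER windows, in 26.7% of cytosolic and mitochondrial ones and in 35.6% of all. The heat shock element, searched as GAANNTTCNNGAA and TTCNNGAANNTTC, was in 0 of 19 ER windows, in 4 of 15 cytosolic and mitochondrial ones (26.7%) and in 0.502% of all. Each gene was searched at 1 start only, and the RefSeq span of DNAJB1 reaches upstream of the start used, so DNAJB1 counts as without the element at that start alone. HSPE1, on the opposite strand to HSPD1, counts as without it too. The HSPD1 elements printed below lie just before the HSPE1 window, which begins at base 197500129. Only exact matches were searched, so imperfect elements were missed. The matches are printed with the fixed bases in capitals, and the pair in HSPD1 overlap each other.
HSPA8 (chr11:123062354-123062366, minus strand, bases -230 to -218): GAAagTTCcaGAA
HSPA8 (chr11:123062179-123062191, minus strand, bases -55 to -43): TTCtgGAAggTTC
HSPD1 (chr2:197500073-197500085, minus strand, bases -245 to -233): TTCtgGAAagTTC
HSPD1 (chr2:197500068-197500080, minus strand, bases -240 to -228): GAAagTTCtgGAA
HSP90AA1 (chr14:102087120-102087132, minus strand, bases -88 to -76): TTCcgGAAggTTC
DNAJA1 (chr9:33025276-33025288, plus strand, bases 4 to 16): GAActTTCcaGAA

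With the perifosine, sorafenib and combination arrays each set against the same control arrays, few chaperone genes passed the test. Genes are called here at an adjusted p under 0.05 (limma, Benjamini-Hochberg over all 18852 genes). With perifosine, 0 of 35 were called, where 0.297% of all genes were. With sorafenib, 0 of 35 were called, where 2.25% of all genes were. With the combination, 1 of 35 was called, DNAJC3, where 1.82% of all genes were, so that share (2.86%) is near the background. At an unadjusted p under 0.05 the counts were 2, 7 and 7 of 35 (5.71%, 20% and 20%), where 7.15%, 15.1% and 12.8% of all genes had one. Most changes were bounded: the 95% confidence interval lay inside a 2-fold change either way for 32 genes with perifosine, 32 with sorafenib and 30 with the combination. In bulk RNA such as this, fewer cells of a kind and less RNA per cell cannot be told apart.

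**Figure D2:**
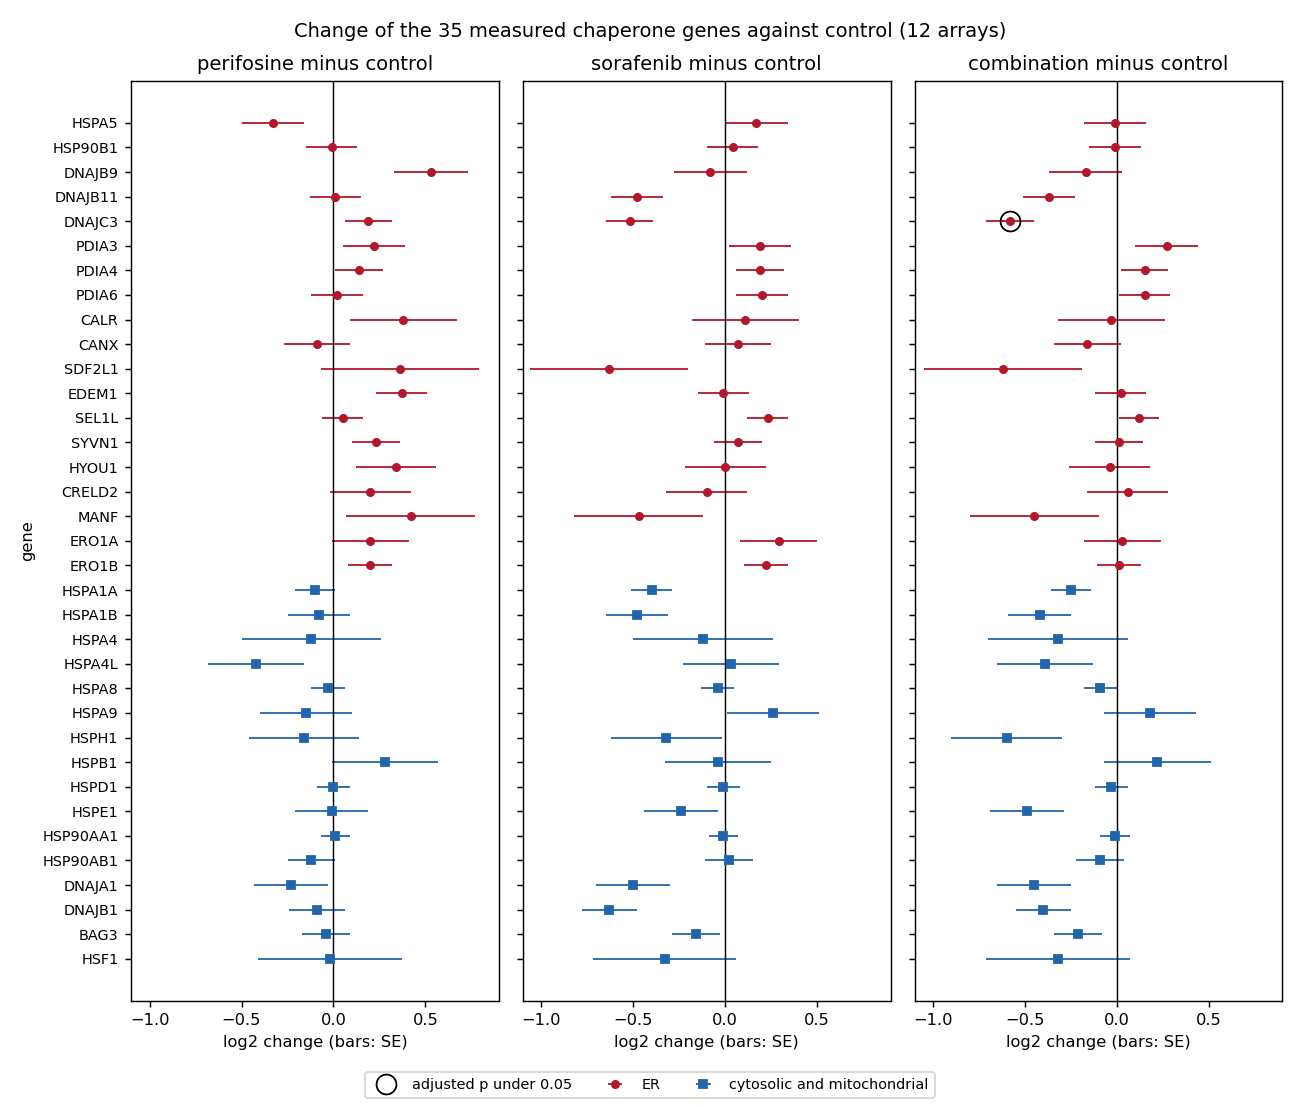
Each panel gives the log2 change of the 35 measured genes against control for perifosine, sorafenib and the combination, with bars of 1 standard error and ER genes in red above the cytosolic and mitochondrial genes in blue. The 1 circled point is DNAJC3 with the combination (-0.58), and the widest bars are those of SDF2L1, HSF1, HSPA4 and MANF.

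DNAJC3, DNAJB11 and DNAJB1 fell with sorafenib averaged over perifosine, meaning the mean of sorafenib minus control and combination minus perifosine. This contrast was added after the values were seen. They were the 3 of 35 chaperone genes called in it, all lower (8.57%), where 7.19% of all genes were called and 2.93% were called lower, so the share called is near the background. Each encodes a J-domain protein, a partner that delivers clients to HSP70 proteins and starts their ATPase cycle, and the chaperone list holds 5 such genes. Of 13 other J-domain genes in the wider folding lists (among them DNAJA2, DNAJA3, DNAJB6, DNAJC7 and DNAJC10), 0 were called in this contrast over 12 or over 9 arrays. These 13 were gathered after the values were seen. With 2.93% of all genes called lower over 12 arrays, a count of 0 of 13 says little. Over 12 arrays the estimates of the 13 did not share a direction (6 positive, 6 negative) and ran from -0.22 to 0.40, with a median of 0.00. For DNAJC3, DNAJB11 and DNAJB1 the 6 arrays with sorafenib did not overlap the 6 without it. This held for 2 of 19 ER genes, for 1 of 16 cytosolic and mitochondrial genes and for 1.9% of all genes in the lower direction. The contrast that called the 3 genes compares the same arrays, so their lack of overlap is in part built in. The bases before the start of 4 ER genes that the results turn on are printed, 5′ to 3′ on the gene's strand, with CCAAT, its reverse complement and any full element in capitals.
DNAJC3 (chr13:95676889-95677138, plus strand): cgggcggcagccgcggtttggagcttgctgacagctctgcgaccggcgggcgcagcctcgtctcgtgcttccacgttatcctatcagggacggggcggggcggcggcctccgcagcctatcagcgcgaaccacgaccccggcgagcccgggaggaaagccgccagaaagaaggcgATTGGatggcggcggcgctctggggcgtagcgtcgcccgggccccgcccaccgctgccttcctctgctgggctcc
DNAJB11 (chr3:186570470-186570719, plus strand): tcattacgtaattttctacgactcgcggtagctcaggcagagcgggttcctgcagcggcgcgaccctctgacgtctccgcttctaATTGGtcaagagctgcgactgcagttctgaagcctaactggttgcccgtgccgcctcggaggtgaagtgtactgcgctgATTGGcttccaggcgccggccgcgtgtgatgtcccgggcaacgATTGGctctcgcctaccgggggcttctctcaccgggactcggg
DNAJB9 (chr7:108569624-108569873, plus strand): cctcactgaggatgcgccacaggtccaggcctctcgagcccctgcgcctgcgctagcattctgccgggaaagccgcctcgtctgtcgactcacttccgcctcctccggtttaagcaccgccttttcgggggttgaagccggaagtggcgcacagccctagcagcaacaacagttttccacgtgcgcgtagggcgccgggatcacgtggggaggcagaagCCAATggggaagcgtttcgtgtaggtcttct
HSPA5 (chr9:125241344-125241593, minus strand): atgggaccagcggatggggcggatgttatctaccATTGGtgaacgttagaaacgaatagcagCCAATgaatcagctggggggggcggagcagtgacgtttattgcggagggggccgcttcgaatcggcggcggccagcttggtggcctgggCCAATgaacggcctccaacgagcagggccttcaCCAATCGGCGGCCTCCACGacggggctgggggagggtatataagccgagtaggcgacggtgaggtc

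DNAJC3 (p58IPK), an ER co-chaperone of HSPA5 that also inhibits the kinase EIF2AK3, was the 1 chaperone gene called over 12 arrays in any of the 6 comparisons between groups. Its intensity was 1264, 1206 and 1058 with perifosine, 653, 736 and 760 with sorafenib, 760, 597 and 713 with the combination, and 1037, 903 and 1149 in control. All 6 arrays with sorafenib were below all 6 without it, while the perifosine and control arrays overlapped. The combination lowered it by a log2 change of -0.58 against control (SE 0.13, 95% interval -0.86 to -0.29, adjusted p = 0.048) and of -0.77 against perifosine (SE 0.13, adjusted p = 0.0084). Sorafenib alone gave -0.52 (SE 0.13, adjusted p = 0.0655), and the averaged contrast -0.65 (SE 0.09, adjusted p = 0.00148), which is a 0.64-fold level. The change against perifosine and the averaged change passed in every alternative run (22 and 21), with adjusted p up to 0.0481 and 0.00635. The call against control was at the edge: it ended in 16 of 22 alternatives, among them 11 of the 12 single arrays left out, for which the adjusted p was 0.0534 to 0.161. It held without sorafenib B and, with an adjusted p of 0.0354, over the 9 arrays. Its window above holds a single CCAAT and no full ER stress element.

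DNAJB11 (ERdj3), a soluble J-domain partner of HSPA5 that binds unfolded clients itself, read 20776, 19588 and 19365 with perifosine, 15488, 12673 and 14571 with sorafenib, 18210, 12414 and 15919 with the combination, and 18997, 18965 and 21433 in control. The highest array with sorafenib, combination A, was just under the lowest array without it. The averaged change was -0.43 (SE 0.10, adjusted p = 0.0214). Against control, sorafenib gave -0.48 (SE 0.14, adjusted p = 0.104) and the combination -0.37 (SE 0.14, adjusted p = 0.264), neither of which passed. The averaged call ended in 5 of 21 alternatives, including those without control C (adjusted p = 0.0519), perifosine A (0.0604) and perifosine B (0.0501).

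DNAJB1 (HSP40) is the cytosolic partner of HSPA1A and a heat shock gene. Its intensity was 10020, 9775 and 11956 with perifosine, 8994, 7066 and 5983 with sorafenib, 9493, 8532 and 7605 with the combination, and 12006, 10390 and 11395 in control. The lowest arrays were sorafenib C and sorafenib B, sorafenib A lay among the combination arrays, and perifosine B and combination A lay next to each other. The averaged change was -0.47 (SE 0.11, adjusted p = 0.0213). Sorafenib alone gave -0.63 against control (SE 0.15, adjusted p = 0.0573), the lowest estimate among the cytosolic and mitochondrial genes, and the combination -0.40 (SE 0.15, adjusted p = 0.267). The averaged call ended in 4 of 21 alternatives, among them those without control A (adjusted p = 0.0574), perifosine C (0.0619) and combination C (0.0592).

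The other J-domain genes of the list, DNAJB9 and DNAJA1, passed against control over 9 arrays but not over 12. DNAJB9 (ERdj4), an HSPA5 partner that also restrains the sensor ERN1, had the largest positive estimate with perifosine. It read 3708, 3423 and 3744 with perifosine, 1813, 3142 and 2361 with sorafenib, 2375, 1845 and 2538 with the combination, and 2219, 2282 and 3146 in control. The perifosine arrays were above all others. For 8.25% of all genes they were above the control arrays, which is a looser condition. The high arrays of the sorafenib and control groups were sorafenib B and control C. Against control the log2 change with perifosine was 0.53 over 12 arrays (SE 0.20, adjusted p = 0.56) and 0.69 over 9 (SE 0.15, adjusted p = 0.0392). Over 9 arrays DNAJB9 was the 1 of 35 chaperone genes called with perifosine, where 1.55% of all genes were. DNAJA1, a cytosolic J-domain protein that is named here after its values were seen, read 38130, 35511 and 35066 with perifosine, 28072, 33953 and 28553 with sorafenib, 42966, 26442 and 26442 with the combination, and 38799, 36630 and 54336 in control. Combination A and control C were far above their mates. The combination changed it by -0.45 over 12 arrays (SE 0.20, adjusted p = 0.358) and by -0.51 over 9 (SE 0.11, adjusted p = 0.0186). Over 9 arrays, DNAJA1 and DNAJC3 were the 2 of 35 called with the combination, where 5.9% of all genes were, and 0 were called with sorafenib, where 4.65% were.

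**Figure D3:**
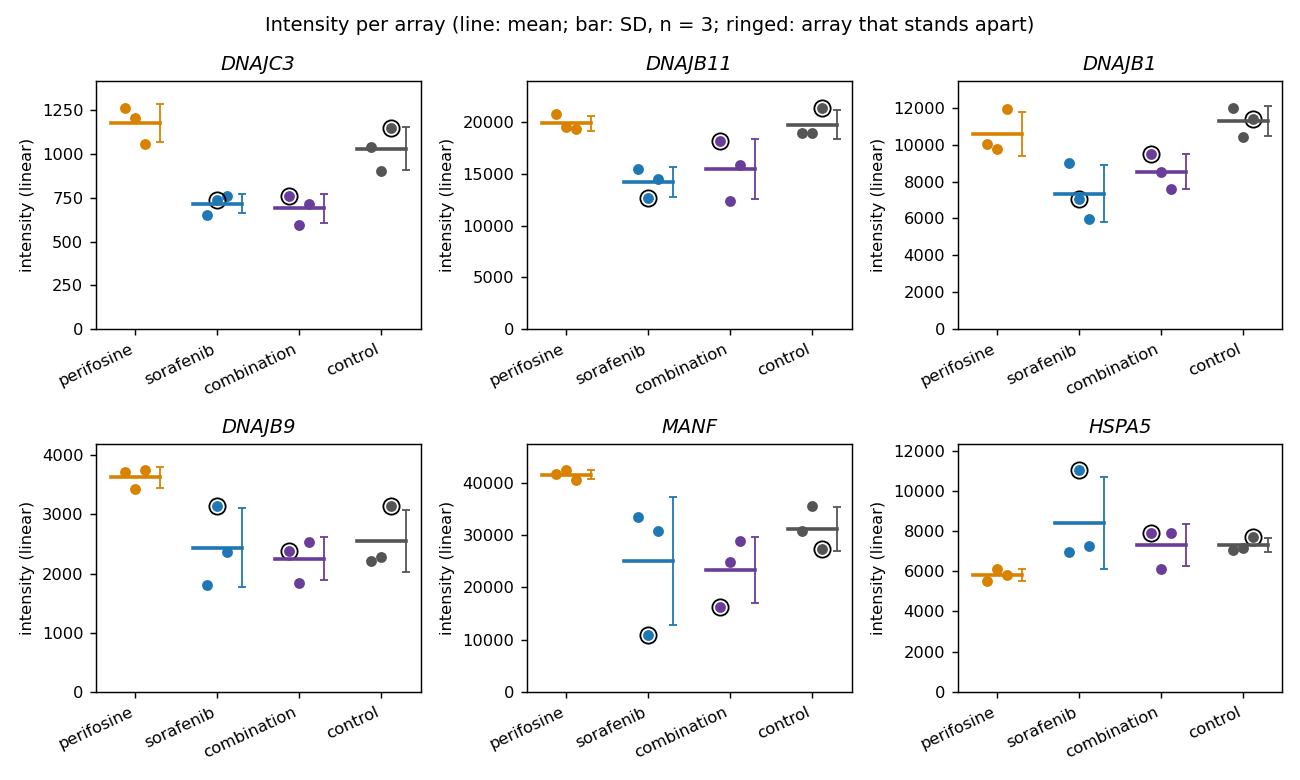
Intensity on a linear scale for DNAJC3, DNAJB11, DNAJB1, DNAJB9, MANF and HSPA5, with 1 point per array, a line for the group mean and a bar for its SD (n = 3), in the order perifosine, sorafenib, combination, control. In the top row the arrays with sorafenib lie below those without it (DNAJC3 at 597 to 760 against 903 to 1264), and ringed points are arrays that stood apart, of which sorafenib B is far from its mates for MANF (10946) and HSPA5 (11021).

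HSPA5 itself, the HSP70 of the ER and the standard readout of the unfolded protein response, read 5526, 6126 and 5796 with perifosine, 6935, 11021 and 7259 with sorafenib, 7908, 6120 and 7912 with the combination, and 7044, 7140 and 7712 in control. The perifosine arrays were below all control arrays, as they were for 9.24% of all genes, and sorafenib B was well above every other array. The log2 change was -0.33 with perifosine (SE 0.17, adjusted p = 0.77), 0.17 with sorafenib (SE 0.17, adjusted p = 0.73) and -0.01 with the combination (SE 0.17, 95% interval -0.37 to 0.36). Over 9 arrays sorafenib gave 0.0 (SE 0.13). HSPA5 was the ER gene with the lowest estimate under perifosine, where 16 of 19 ER genes had a positive one. Its window has the full element printed above. HSP90B1 (GRP94), the HSP90 of the ER, with that element on both strands, gave -0.01, 0.04 and -0.01 (SE 0.14 each). Its readings, up to 68945, lay near the highest value on the arrays (71906), so a rise could hardly be seen.

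HYOU1, which exchanges the nucleotide on HSPA5, gave log2 changes of 0.34, 0.00 and -0.04 with perifosine, sorafenib and the combination (SE 0.22). SDF2L1, which forms a complex with DNAJB11 and HSPA5, read 13840, 13314 and 17431 with perifosine, 12054, 3543 and 9666 with sorafenib, 4533, 9273 and 10020 with the combination, and 13652, 13968 and 7968 in control. The lowest reading in each group that has an array apart was that array. Its estimates were the lowest among ER genes with sorafenib (-0.63) and with the combination (-0.62), with an SE of 0.43 and adjusted p of 0.568 and 0.66. MANF, a small secreted protein that binds HSPA5 and leaves the cell when ER calcium falls, is named after its values were seen. It read 41655, 42373 and 40568 with perifosine, 33376, 10946 and 30690 with sorafenib, 16289, 24777 and 28761 with the combination, and 30690, 35511 and 27290 in control. The perifosine arrays were the highest and lay close together, and sorafenib B was the lowest of all 12. The change with perifosine was 0.42 (SE 0.35, adjusted p = 0.924) over 12 arrays and 0.33 (SE 0.11, adjusted p = 0.213) over 9. CRELD2, another secreted ER protein, gave 0.20, -0.10 and 0.06 (SE 0.22).

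Among the enzymes that form disulfide bonds, PDIA3, PDIA4 and PDIA6 are isomerases and ERO1A and ERO1B the oxidases that recharge them. PDIA3, a dim probe, read 342, 316 and 417 with perifosine, 351, 279 and 434 with sorafenib, 328, 354 and 430 with the combination, and 324, 277 and 318 in control. The combination arrays did not overlap the control arrays, as was so for 10.5% of all genes in the higher direction. Its change of 0.27 with the combination (SE 0.17, adjusted p = 0.608) was the largest positive estimate among ER genes there. PDIA4 gave 0.14, 0.19 and 0.15 (SE 0.13) with perifosine, sorafenib and the combination, and PDIA6 gave 0.02, 0.20 and 0.15 (SE 0.14). ERO1A read 3608, 4446 and 3968 with perifosine, 3293, 6432 and 3577 with sorafenib, 3993, 3166 and 3480 with the combination, and 3295, 3607 and 3501 in control. The highest reading was sorafenib B, and the other arrays of that group overlapped control. ERO1A had the largest positive ER estimate with sorafenib, 0.29 (SE 0.21, adjusted p = 0.6), and over 9 arrays, without sorafenib B, it was -0.01 (SE 0.13). ERO1B, dim, gave 0.20, 0.22 and 0.01 (SE 0.12).

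Over 12 arrays none of the lectin chaperones or of the measured degradation factors passed the test, and over 9 arrays EDEM1 passed in combination minus perifosine alone. CALR and CANX hold glycoproteins in the folding cycle, and gave 0.38, 0.11 and -0.03 (SE 0.29) and -0.09, 0.07 and -0.16 (SE 0.18) with perifosine, sorafenib and the combination. EDEM1, which marks misfolded glycoproteins for disposal, gave 0.37 with perifosine (SE 0.14, adjusted p = 0.516). It read 2113, 2557 and 2433 with perifosine against 1832, 1692 and 1950 in control, without overlap. With sorafenib and the combination EDEM1 gave -0.01 and 0.02. The ubiquitin ligase SYVN1 (HRD1) gave 0.23, 0.07 and 0.01 (SE 0.13), and its partner SEL1L, dim, 0.05, 0.23 and 0.12 (SE 0.11).

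Of the 16 cytosolic and mitochondrial genes, none passed the test against control over 12 arrays, and over 9 arrays DNAJA1 did with the combination. The stress-inducible HSP70 pair HSPA1A and HSPA1B have almost the same sequence, and a probe of one may also bind the other's transcripts, so the split between them is uncertain. HSPA1A gave -0.10, -0.40 and -0.25 (SE 0.11) and HSPA1B -0.08, -0.48 and -0.42 (SE 0.17) with perifosine, sorafenib and the combination, with adjusted p for sorafenib of 0.0964 and 0.181. For both genes, the arrays of the sorafenib and of the combination group lay below all control arrays, as did those of 8.46% and 8.76% of all genes. HSPA8, the constitutive HSP70 with 2 heat shock elements in its window, gave -0.03, -0.04 and -0.09 (SE 0.09) near the top of the scale.

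HSPH1, HSPA4 and HSPA4L belong to the HSP110 family, which exchanges the nucleotide on HSP70. HSPH1 read 39796, 42097 and 36440 with perifosine, 27601, 57498 and 27493 with sorafenib, 38178, 20818 and 30874 with the combination, and 37136, 38866 and 58637 in control. The array that stood apart was the highest of its group in each case. The combination gave -0.60 (SE 0.30, adjusted p = 0.454), the lowest cytosolic estimate there, and over 9 arrays -0.58 (SE 0.16, adjusted p = 0.0536). HSPA4L read 2720, 2973 and 2667 with perifosine, 2705, 6290 and 3214 with sorafenib, 3460, 2612 and 2488 with the combination, and 3351, 3487 and 4374 in control. The perifosine arrays were below all control arrays, and the change was -0.42 (SE 0.26, adjusted p = 0.862) over 12 arrays and -0.30 (SE 0.11, adjusted p = 0.264) over 9. HSPA4 had 10704 on sorafenib B against 2926 and 3555 on its mates, and its estimates were -0.12, -0.12 and -0.32 (SE 0.38).

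The small heat shock protein HSPB1 (HSP27) read 35173, 33897 and 35921 with perifosine, 34471, 18180 and 35108 with sorafenib, 23141, 39195 and 41137 with the combination, and 34345, 33205 and 20872 in control. The 3 low readings were the 3 arrays that stood apart. HSPB1 had the largest positive cytosolic estimate with perifosine, 0.28 (SE 0.29, adjusted p = 0.944), and with the combination, 0.22 (SE 0.29, adjusted p = 0.858), and over 9 arrays these were 0.05 (SE 0.10) and 0.25 (SE 0.11, adjusted p = 0.22). The HSP90 gene HSP90AB1 gave -0.12, 0.02 and -0.09 (SE 0.13), and the co-chaperone BAG3, which couples HSP70 to autophagy, -0.04, -0.16 and -0.21 (SE 0.13).

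Of the mitochondrial chaperones, HSPA9 (mortalin) read 29565, 30825 and 25972 with perifosine, 30825, 59427 and 30425 with sorafenib, 47312, 33724 and 29948 with the combination, and 28241, 29606 and 38972 in control. Sorafenib B and combination A had the highest readings. Its estimate with sorafenib, 0.26 (SE 0.25, adjusted p = 0.733), was the largest positive one of the cytosolic and mitochondrial genes and was 0.08 (SE 0.12) over 9 arrays. The chaperonin HSPD1 (HSP60) gave -0.00, -0.01 and -0.03 (SE 0.09), near the top of the scale. A less bright HSPD1 probe, with a mean intensity of 3516, gave -0.40, -0.35 and -0.40 (SE 0.22). None of these passed when every probe was fitted on its own (adjusted p = 0.819, 0.558 and 0.56). HSPE1 (HSP10), the partner of HSPD1, gave -0.01, -0.24 and -0.49 (SE 0.20), the last with an adjusted p of 0.321. HSF1, the transcription factor of the heat shock genes, read 1325, 1466 and 1767 with perifosine, 1696, 608 and 1730 with sorafenib, 744, 1747 and 1392 with the combination, and 1795, 1642 and 1207 in control. Apart from sorafenib B and combination A, its arrays overlapped in all groups. The estimates were -0.02, -0.33 and -0.32 (SE 0.39), and over 9 arrays -0.19, -0.00 and -0.14 (SE 0.14, 0.15 and 0.15).

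Set side by side, the median of the ER genes lay above that of the cytosolic and mitochondrial genes on each of the treated arrays. With perifosine the median log2 change was 0.20 over 19 ER genes (16 positive, 3 negative) and -0.09 over 16 cytosolic and mitochondrial genes (2 positive, 14 negative). With sorafenib the medians were 0.07 and -0.14, and with the combination -0.01 and -0.28, where the median of all genes was -0.002, 0.003 and -0.001 for the 3 comparisons. On the perifosine arrays the ER median deviation from the control mean exceeded the other group's by 0.29, 0.27 and 0.12. On the sorafenib arrays it did so by 0.14, 0.34 and 0.19, on the combination arrays by 0.24, 0.19 and 0.21, and on the control arrays by 0.00, 0.02 and 0.03. Control arrays are measured from their own mean, which holds them near 0, so the gap to the treated arrays is in part built in. The treated arrays all share that control mean, which includes control C, so their gaps are not independent of each other. The cytosolic and mitochondrial genes were also brighter (median of the mean log2 intensity 14.98, against 11.89 for ER genes). Those of them near the top of the scale could hardly rise. The difference between the 2 gene groups was not tested, since the genes were chosen with earlier results known. The cytosolic and mitochondrial medians moved towards 0 over 9 arrays, to -0.03, -0.06 and -0.19.

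**Figure D4:**
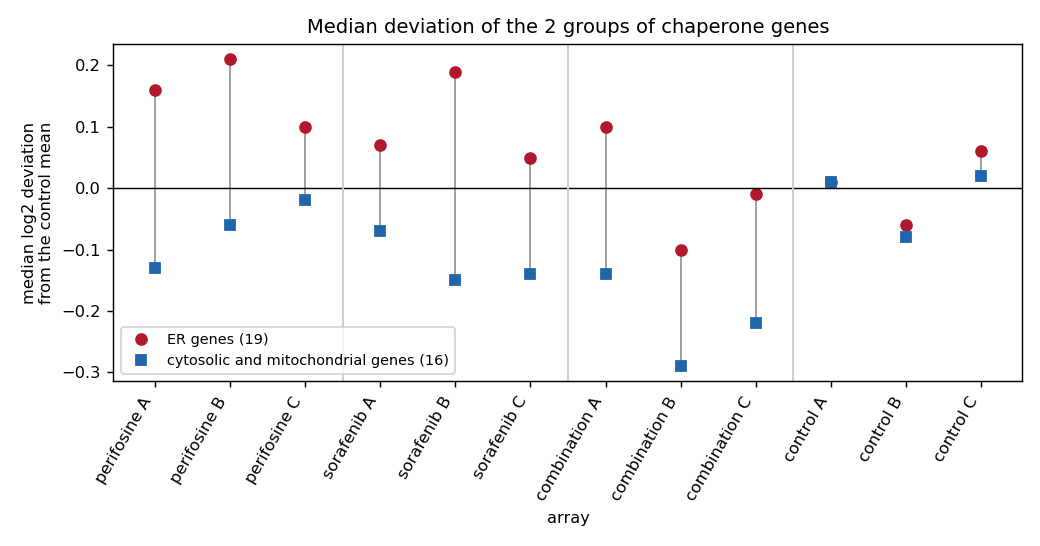
For each of the 12 arrays, the median log2 deviation from the control mean over the 19 ER genes (circles) and the 16 cytosolic and mitochondrial genes (squares), joined by a line. The lines on the perifosine, sorafenib and combination arrays span 0.12 to 0.34, and those on the control arrays at most 0.03.

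Adding sorafenib to perifosine was, over 12 arrays, the comparison in which most chaperone genes pointed downward. Combination minus perifosine gave a negative estimate for 27 of 35 genes, with a median of -0.18, where that of all genes was 0.001. DNAJC3 was the 1 gene called (2.86%), where 2.2% of all genes were, and 7 of 35 (20%) had an unadjusted p under 0.05, where 12.5% of all genes did. Over 9 arrays the estimate was negative for 28 of 35 genes, the same count as in combination minus sorafenib. In combination minus perifosine over 9 arrays, 8 of 35 were called (22.9%), all lower, where 6.92% of all genes were called and 3.24% were called lower. They were the J-domain genes DNAJC3, DNAJB9, DNAJB11 and DNAJA1 and the genes EDEM1, MANF, SDF2L1 and HSPH1. DNAJB9 gave -0.70 over 12 arrays (SE 0.20, adjusted p = 0.118) and -0.74 over 9 (SE 0.15, adjusted p = 0.00955). MANF gave -0.87 (SE 0.35, adjusted p = 0.314) and -0.64 (SE 0.11, adjusted p = 0.00503), and SDF2L1 -0.98 (SE 0.43, adjusted p = 0.378) and -0.61 (SE 0.14, adjusted p = 0.0185). For both, the estimate and its SE were smaller over 9 arrays. Leaving out sorafenib B alone, which enters this comparison through the shared spread, gave 3 calls.

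In the averaged sorafenib contrast over 9 arrays, 9 of 35 were called (25.7%), all lower, where 13.5% of all genes were called and 6.23% were called lower. These 9 were DNAJC3, DNAJB11, DNAJB1, DNAJB9, DNAJA1, MANF, SDF2L1, HSPA4 and HSPH1. They include the 5 J-domain genes of the list. The 13 other J-domain genes lie outside the list, so they could not be among these 9. Counted apart, 0 of the 13 were called. Without sorafenib B alone the count was 6. Adding perifosine to sorafenib called 0 of 35 chaperone genes, where 0.0% of all genes were called, and 0 had an unadjusted p under 0.05, where 3.41% of all genes did. Perifosine averaged over sorafenib called 0 of 35, where 0.149% of all genes were.

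The interaction asks whether perifosine acted differently with sorafenib than without it. It called 0 of 35 chaperone genes, where 0.0159% of all genes were, and 1 had an unadjusted p under 0.05, where 4.89% of all genes did. That was ERO1B, a dim gene, at -0.41 (SE 0.16, adjusted p = 0.968). DNAJB9, above control with perifosine alone and not with the combination, gave -0.62 (SE 0.28, adjusted p = 0.992). The median was -0.25 over the ER genes, 17 of 19 being negative, and -0.01 over the cytosolic and mitochondrial genes. The median SE of an ER gene here was 0.24, and an interaction of that size was not detectable with this number of arrays.

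The sensors that raise the ER genes were themselves measured among 15 sensors and effectors of the unfolded protein response. Of these, 0 were called with perifosine, 1 with sorafenib and 1 with the combination (6.67% each), TRIB3 both times, where 0.297%, 2.25% and 1.82% of all genes were. TRIB3, a pseudokinase induced through ATF4 and DDIT3, read 3956, 3656 and 3558 with perifosine, 4483, 4522 and 5267 with sorafenib, 7170, 6074 and 5342 with the combination, and 2591, 2799 and 3167 in control. All treated arrays were above all control arrays. It rose by 0.74 with sorafenib (SE 0.13, adjusted p = 0.0152) and by 1.11 with the combination (SE 0.13, adjusted p = 0.0015). ERN1, dim at 215 to 307 on all arrays, gave -0.13, -0.16 and -0.12 (SE 0.12). EIF2AK3 gave 0.34, 0.06 and -0.07 (SE 0.16), with 815, 957 and 940 on the perifosine arrays against 608, 822 and 718 in control. ATF6 gave 0.28, 0.42 and 0.29 (SE 0.18), and XBP1, the factor whose messenger RNA is spliced by ERN1, -0.03, 0.12 and 0.26 (SE 0.16). The probes used here were not matched to the spliced form of XBP1.

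ATF4 and DDIT3, the factors downstream of EIF2AK3 and of other kinases of eIF2, passed with the combination over 9 arrays but not over 12. Of the 15 sensors and effectors, 1 was called over 9 arrays with perifosine (CEBPB) and 2 with sorafenib (DDIT3 and TRIB3). With the combination 5 were called (ATF4, CEBPB, DDIT3, MBTPS1 and TRIB3), and all these calls were higher. The shares were 6.67%, 13.3% and 33.3%, where 1.55%, 4.65% and 5.9% of all genes were called. ATF4 read 48031, 46822 and 40424 with perifosine, 51709, 63872 and 55129 with sorafenib, 68945, 66733 and 70326 with the combination, and 38552, 40424 and 57410 in control. The combination arrays were above all others, and control C was far above its mates. The combination arrays of ATF4 also lay next to the highest value on the arrays (71906), so the size of the estimates for the combination may be understated. The combination gave 0.62 (SE 0.15, adjusted p = 0.0651) over 12 arrays and 0.80 (SE 0.12, adjusted p = 0.00314) over 9. DDIT3 (CHOP) gave 0.89 (SE 0.34, adjusted p = 0.266) and 1.07 (SE 0.13, adjusted p = 0.000703). It read 2065, 1861 and 1885 with perifosine and 2429, 963 and 2918 with sorafenib. With the combination it read 1936, 3226 and 3146, and in control 1571, 1462 and 1344. Combination A, which is left out of the 9 arrays, lay within the range of the perifosine arrays. ATF4, DDIT3, CEBPB and MBTPS1 are named after their values were seen.

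Of 57 other genes of ER folding, export and degradation, 0 were called with perifosine, 0 with sorafenib and 0 with the combination over 12 arrays. At an unadjusted p under 0.05 these were 2, 8 and 8 (3.51%, 14.0% and 14.0%), against the 7.15%, 15.1% and 12.8% of all genes. Of 54 other cytosolic and mitochondrial folding genes, 0 were called with perifosine, 3 with sorafenib (1 higher, 2 lower) and 2 with the combination (1 higher, 1 lower). Those shares are 5.56% and 3.70%, where 2.25% and 1.82% of all genes were called. CHORDC1, a co-chaperone of HSP90 and a heat shock gene, read 4319, 4574 and 4233 with perifosine, 2633, 3650 and 2621 with sorafenib, 3554, 2281 and 2643 with the combination, and 4786, 5039 and 6167 in control. Its arrays with sorafenib were all below its arrays without, as for DNAJC3, DNAJB11 and DNAJB1. It fell by 0.85 with sorafenib and by 0.93 with the combination (SE 0.18, adjusted p = 0.0305 and 0.0226). STIP1 (HOP), which passes clients between HSP70 and HSP90, fell by 0.42 with sorafenib (SE 0.10, adjusted p = 0.0467) and gave -0.41 with the combination (SE 0.10, adjusted p = 0.0573). AHSA2P, a relative of the HSP90 activator AHSA1, rose by 0.69 and 0.68 (SE 0.14, adjusted p = 0.0245 and 0.0281).

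The 3 arrays that stood apart differed from their mates in the chaperone genes as well. Of 19 ER genes, 5 (CALR, SDF2L1, HYOU1, CRELD2 and MANF) were lower on all 3 than on their mates and 11 were higher. Of 16 cytosolic and mitochondrial genes, 4 (HSPA1B, HSPB1, HSPE1 and HSF1) were lower and 9 higher. Of all genes, 20.5% were lower and 24.8% higher. SDF2L1 differed by -1.61 on sorafenib B, -1.09 on combination A and -0.79 on control C, and HSF1 by -1.49, -1.07 and -0.51. HSPH1 was higher by 1.06, 0.59 and 0.63 and HSPA4 by 1.73, 0.20 and 0.50. DNAJC3, DNAJB11 and DNAJB1, the genes called in the averaged sorafenib contrast when all arrays were kept, differed by at most 0.37 in size. A large difference within a group raises the SE and makes a call less likely, so their small differences are in part built in. The cause of the difference between the 3 arrays that stood apart and their mates was not tested.

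**Figure D5:**
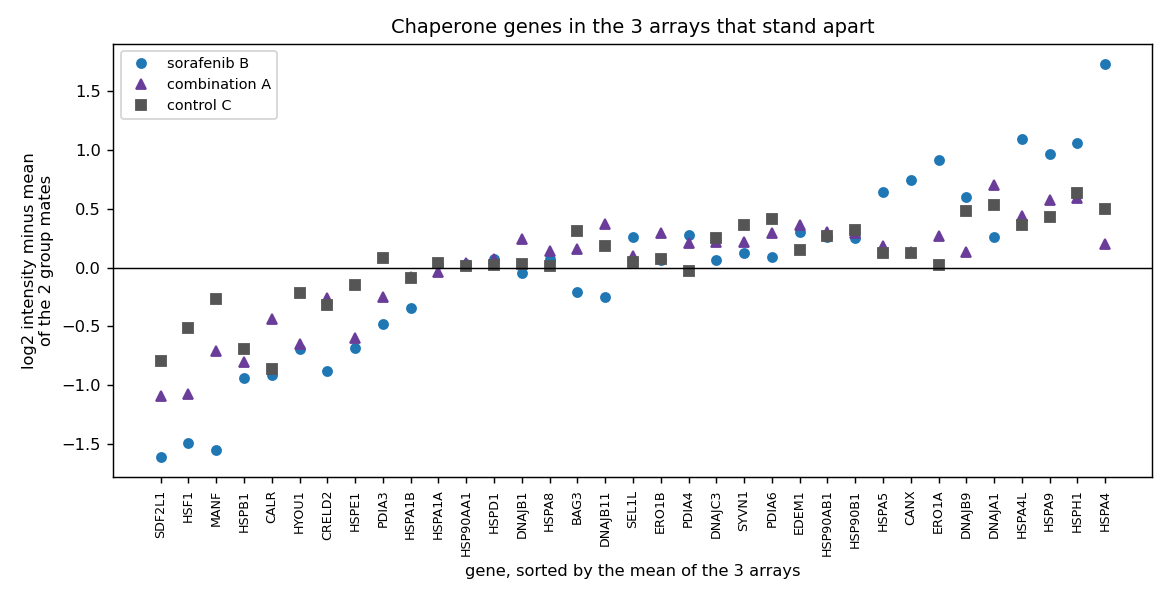
For the 35 measured genes, sorted by the mean of the 3 arrays, the log2 intensity of sorafenib B, combination A and control C minus the mean of the 2 other arrays of the same group. SDF2L1, HSF1 and MANF are at the low end (to -1.61) and HSPA4 at the high end (to 1.73), while DNAJB1, DNAJB11 and DNAJC3 lie near the middle.

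For 10 chaperone genes more than 1 probe was named, with 13 probes besides the brightest, 4 of them dim. Over the comparisons made, these had the sign of the brightest probe in 67 of 104 cases, and 0 of the 13 were called when every probe was fitted on its own. DNAJC3, DNAJB11 and DNAJB1 were each read by a single named probe, so their falls rest on 1 probe apiece.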

How the data were processed

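Trizol-extracted RNA, treated with DNase, was turned into biotinylated cRNA for Illumina arrays, per the labels' protocols. The submitters' processing notes name BeadStudio; its version and the normalization are not given in the sources used here. Each probe has 1 linear intensity per array in the deposited table. Its sorted columns differ by at most 2.34% and none goes below 170, the pattern of quantile normalization without background subtraction. In another deposited table, 12 signal columns could be tied to no sample by name and were not used.

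Of 48803 probes, 28098 had 1 gene symbol in the platform annotation, 13 had several and 20692 were not listed there. The brightest probe by mean log2 intensity stood for each of 18852 genes. Log2 intensities were fitted with limma 3.58.1 in R 4.3.3 as 4 group means over 12 arrays (8 residual and 3.52 prior degrees of freedom), with moderated two-sided tests of 6 contrasts and of 2 averaged contrasts added after the values were seen. Benjamini-Hochberg adjustment ran over all 18852 genes, with a threshold of 0.05, and the fit was tested on simulated data. An array stood apart where its mates correlated with each other by over 0.005 more than with it.

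The 36 genes and the other lists were chosen with earlier results of these data known, so no test was made over a list or a score. Values per array are given for members called in a comparison between groups, for the member with the largest change each way in each gene group against control, for HSPA5 and HSF1, and for genes named after their values were seen. Of the other lists, the genes named are the 3 largest called changes each way against control, ERN1, EIF2AK3, ATF6 and XBP1. Alternatives were a replicate block, single arrays left out, the 3 arrays left out together, only the groups compared, normexp background correction, median centring, quantile normalization, an intensity filter, array weights, trend and robust moderation, and other probe rules. Promoter windows and motifs come from RefSeq (GRCh38.p14).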

Additional observations from a re-analysis of the deposited data

How the results depend on the processing

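The estimates of the called genes kept their sign under every alternative run. Of the medians of the 2 gene groups, that of the ER genes with the combination changed sign: it was -0.01 with all arrays and 0.03, 0.04 and 0.01 without control C, combination B and combination C (range -0.07 to 0.04). No chaperone gene was called in combination minus sorafenib, in the interaction or in averaged perifosine under any of them. The fall of DNAJC3 in combination minus perifosine and in averaged sorafenib passed under each alternative run (log2 changes of -0.94 to -0.67 and of -0.78 to -0.59). Without the 3 arrays that stood apart, the chaperone genes called numbered 1 with perifosine, 2 with the combination, 8 in combination minus perifosine and 9 in averaged sorafenib, against 0, 1, 1 and 3 with all arrays, and the cytosolic and mitochondrial medians were -0.03, -0.06 and -0.19 with perifosine, sorafenib and the combination. With array weights 1 gene (DNAJB1) was called with sorafenib, 5 in combination minus perifosine and 9 in averaged sorafenib. With only the groups compared the count was 0 with the combination and 3 in combination minus perifosine. With normexp background correction it was 0 with the combination and 1 in averaged sorafenib, and with the intensity filter or with trend and robust moderation 0 with the combination. The mean of all probes gave a cytosolic and mitochondrial median of -0.20 with sorafenib. The causes of these shifts were not tested. Where arrays were left out, the fit also held fewer arrays. The 3 arrays that stood apart were picked for differing from their mates, so the spread without them is lower by construction.

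Leaving out 1 array at a time gave counts of 0 to 1 with sorafenib, 0 to 1 with the combination, 1 to 3 in combination minus perifosine and 2 to 6 in averaged sorafenib. The cytosolic and mitochondrial medians then ran from -0.13 to -0.03 with perifosine, from -0.22 to -0.08 with sorafenib and from -0.31 to -0.19 with the combination, the ends being set by leaving out control B or control C. The replicate letters did not pair the arrays: deviations from the group mean correlated between same-letter arrays at -0.67 to 0.621 over 18 pairs, with a median of -0.047. With the letters as a replicate block, 0 genes were called with the combination (DNAJC3 at an adjusted p of 0.0837), 1 in combination minus perifosine and 4 in averaged sorafenib, HSPA1B being the addition. No background was subtracted, so changes of the 3 dim ER genes are understated, and probes near the top of the scale limit what could be seen for HSPA8, HSPD1 and HSP90AA1. The same limit holds for a rise in HSP90B1, HSPE1 and HSP90AB1.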

Other observations

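Beyond the 36 genes, other genes of both folding systems were also called in averaged sorafenib, in both directions, where 7.19% of all genes were called. Of 15 sensors and effectors of the unfolded protein response, 3 (TRIB3, ATF4 and MBTPS1) were called, all higher. Of 57 other ER genes, 4 were called (7.02%), 2 higher and 2 lower, so that share is near the background. Of 54 other cytosolic and mitochondrial folding genes, 6 were called (11.1%), 2 higher and 4 lower. These genes are named after their values were seen, by limma over all genes, and which pathway moved them was not tested.

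SELENOS, a selenoprotein of ER-associated degradation, read 23564, 22474 and 21206 with perifosine, 12407, 7004 and 13605 with sorafenib, 12985, 13444 and 14456 with the combination, and 16189, 16879 and 20558 in control. All arrays with sorafenib were below all without it, and sorafenib B was the lowest. The averaged log2 change of SELENOS was -0.73 (SE 0.15, adjusted p = 0.0107), and -0.52 (SE 0.08, adjusted p = 0.00101) without the 3 arrays that stood apart. GRPEL1, the nucleotide exchange factor of HSPA9 in mitochondria, fell as well (-0.62, SE 0.14, adjusted p = 0.0194, and -0.47 over 9 arrays), with 2475 to 4845 on the arrays with sorafenib against 5210 to 6737 on those without. WFS1, an ER membrane protein (0.45, SE 0.09, adjusted p = 0.0144), and LONP1, a protease and chaperone of the mitochondrial matrix (0.37, SE 0.09, adjusted p = 0.027), rose.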
